A study of Homo sapiens with 6 samples.

Results

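Host-gene long noncoding RNAs are transcripts without a long open reading frame that carry small RNAs in their introns or exons. The set described here holds the snoRNA host genes (SNHG), the microRNA host genes (MIR...HG) and 6 long noncoding RNAs named one by one, GAS5, H19, NEAT1, MALAT1, PVT1 and DANCR. Members were chosen by gene symbol alone. The rule found 110 of the 63140 genes in the table: 31 snoRNA hosts (GAS5 and DANCR among them), 77 microRNA hosts (H19 and PVT1 among them) and the nuclear body RNAs NEAT1 and MALAT1.

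The study compared NOZ-R, a gallbladder cancer line made resistant to the nucleoside analogue gemcitabine by raising the dose stepwise, with NOZ, the established human line it came from. RNA-seq of poly-A RNA was done on 3 libraries of NOZ-R and 3 libraries of NOZ, with 15661532 to 18855409 counts in NOZ-R and 14136037 to 19244923 counts in NOZ. No treatment at harvest and no cloning step is given for either line. The labels do not say whether replicates were separate cultures, and p-values therefore stand for the variation among libraries, some of which may be technical. NOZ replicate 2 stood apart in base composition: across genes, its deviation from the line's mean had a rank correlation of -0.495 with transcript GC content, against 0.312 and 0.364 in NOZ replicates 1 and 3. Results that it decides are given with and without it.

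Small nucleolar RNAs guide the chemical modification of ribosomal RNA and are, in vertebrates, mostly cut from introns of host transcripts. The spliced remainder of many SNHG genes carries stop codons early in the message, is bound by ribosomes and is degraded by nonsense-mediated decay. MicroRNAs are cut as hairpins from longer primary transcripts by the nuclear Microprocessor and then by DICER1, and they recognise messages mainly through the seed at their 5′ end. NEAT1 is the scaffold of paraspeckles, and MALAT1 is a retained RNA of nuclear speckles.

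Some of the microRNAs carried by these host genes share a seed although their hosts lie on different chromosomes, and such hosts went in opposite directions between the lines. The mature sequences below, from RefSeq (GRCh38.p14), are shown because they tie different host genes together. The capitals mark the seed, bases 2 to 8. Poly-A libraries of long fragments do not measure these mature RNAs, so every value that follows is of the host transcript.
let-7c-5p in MIR99AHG, chr21:16539838-16539859, plus strand: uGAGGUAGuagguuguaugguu
let-7b-5p in MIRLET7BHG, chr22:46113691-46113712, plus strand: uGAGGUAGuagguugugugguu
let-7a-5p in MIRLET7A1HG, chr9:94175962-94175983, plus strand: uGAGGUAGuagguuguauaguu
let-7a-5p in MIR100HG, chr11:122146568-122146589, minus strand: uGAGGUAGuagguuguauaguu
miR-4500 in MIR4500HG, chr13:87618671-87618687, minus strand: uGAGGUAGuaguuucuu
let-7i-5p in MIRLET7IHG, chr12:62603691-62603712, plus strand: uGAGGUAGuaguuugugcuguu
miR-4458 in MIR4458HG, chr5:8460933-8460951, plus strand: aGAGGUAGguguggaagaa
miR-99a-5p in MIR99AHG, chr21:16539101-16539122, plus strand: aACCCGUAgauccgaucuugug
miR-100-5p in MIR100HG, chr11:122152275-122152296, minus strand: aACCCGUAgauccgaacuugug
miR-125b-5p in MIR99AHG, chr21:16590253-16590274, plus strand: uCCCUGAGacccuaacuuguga
miR-125b-5p in MIR100HG, chr11:122099809-122099830, minus strand: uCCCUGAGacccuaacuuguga

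A second set shows microRNAs of some of the hosts that rose or fell and shared no seed with another tested host, chosen as the better known ones and MIR1915HG, which fell most. MiR-17-5p and miR-20a-5p share 1 seed, as do miR-19a-3p and miR-19b-3p, miR-221-3p and miR-222-3p, and miR-29b-3p and miR-29c-3p.
miR-146a-5p in MIR3142HG, chr5:160485372-160485393, plus strand: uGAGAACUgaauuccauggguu
miR-137-3p in MIR137HG, chr1:98046091-98046113, minus strand: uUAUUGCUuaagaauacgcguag
miR-210-3p in MIR210HG, chr11:568112-568133, minus strand: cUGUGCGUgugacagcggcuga
miR-22-3p in MIR22HG, chr17:1713914-1713935, minus strand: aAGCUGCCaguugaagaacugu
miR-29b-3p in MIR29B2CHG, chr1:207802450-207802472, minus strand: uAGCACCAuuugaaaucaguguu
miR-29c-3p in MIR29B2CHG, chr1:207801865-207801886, minus strand: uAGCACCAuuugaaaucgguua
miR-17-5p in MIR17HG, chr13:91350618-91350640, plus strand: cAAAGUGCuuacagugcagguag
miR-20a-5p in MIR17HG, chr13:91351072-91351094, plus strand: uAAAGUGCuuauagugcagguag
miR-18a-5p in MIR17HG, chr13:91350756-91350778, plus strand: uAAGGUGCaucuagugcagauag
miR-19a-3p in MIR17HG, chr13:91350939-91350961, plus strand: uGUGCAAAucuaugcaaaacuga
miR-19b-3p in MIR17HG, chr13:91351245-91351267, plus strand: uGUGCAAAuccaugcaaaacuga
miR-92a-3p in MIR17HG, chr13:91351361-91351382, plus strand: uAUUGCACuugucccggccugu
miR-221-3p in MIR222HG, chrX:45746180-45746202, minus strand: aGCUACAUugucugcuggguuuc
miR-222-3p in MIR222HG, chrX:45747036-45747056, minus strand: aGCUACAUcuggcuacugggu
miR-31-5p in MIR31HG, chr9:21512158-21512178, minus strand: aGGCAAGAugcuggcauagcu
miR-1915-3p in MIR1915HG, chr10:21496576-21496595, minus strand: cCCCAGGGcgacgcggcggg

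Levels per length, in FPKM (fragments per kilobase of gene model, scaled to library size, as deposited by the authors), placed snoRNA hosts and NEAT1 at the top. GAS5, a growth arrest transcript that hosts box C/D snoRNAs, had 23.8, 23.8 and 22.8 FPKM in NOZ-R, against 25.3, 26.4 and 25.04 FPKM in NOZ. SNHG29 had 20.1, 20.1 and 19.2 FPKM in NOZ-R, against 23.4, 21.9 and 24.0 FPKM in NOZ. SNHG1 had 20.4, 19.6 and 18.4 FPKM in NOZ-R, against 21.1, 19.6 and 18.1 FPKM in NOZ. In GAS5 and SNHG29 the FPKM ranges of the lines did not overlap and NOZ-R was lower, while those of SNHG1 overlapped. NEAT1 averaged 17.2 ± 1.14 FPKM in NOZ-R and 16.8 ± 1.26 FPKM in NOZ (SD, n = 3 each). SNHG29 and SNHG1, neighbours in the order of levels, differed by less than their SDs in NOZ-R. SNHG6 (10.8 ± 0.915 FPKM in NOZ-R and 11.4 ± 1.42 FPKM in NOZ) and SNHG16 (9.40 ± 0.467 FPKM in NOZ-R and 11.3 ± 0.474 FPKM in NOZ) differed from each other by less than their SDs in NOZ. MIR3142HG was the microRNA host with the most FPKM in NOZ-R, at 11.3 ± 0.758 FPKM in NOZ-R and 3.36 ± 0.407 FPKM in NOZ, while in NOZ MIR100HG had the most. FPKM is divided by the library's total alone and holds no factor for composition. The tests use counts with TMM factors, 0.954 to 0.961 in NOZ-R and 1.04 to 1.05 in NOZ, and CPM (each gene's count relative to the scaled library) is given here after that scaling. It also rests on 1 fixed length per gene, which for SNHG5 came to 12604 bases, against 2806 exonic bases in the GENCODE 29 annotation, and for DANCR to 10179, against 2285. A longer model gives a lower FPKM for the same count.

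**Figure D1:**
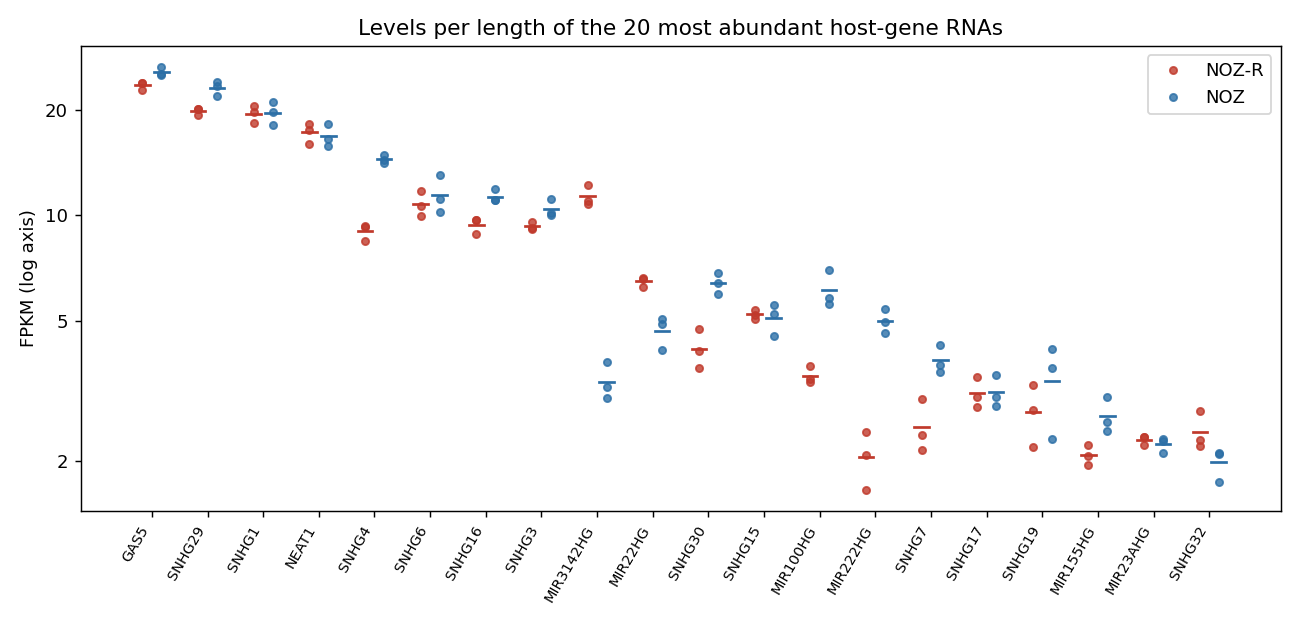
Level per length (FPKM, log axis) of the 20 host-gene RNAs with the highest mean, by library: dots are the 3 libraries of each line, NOZ-R left and NOZ right, and bars are means. SNHG4, MIR100HG and MIR222HG sit lower in NOZ-R, MIR3142HG sits higher, and GAS5, SNHG29, SNHG1 and NEAT1 lead in both lines.

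Summed over all members, host-gene RNAs took 0.138% to 0.149% of the counts in NOZ-R and 0.160% to 0.170% in NOZ, so the ranges did not overlap. Summed CPM of the snoRNA hosts was 718 to 769 in NOZ-R and 793 to 819 in NOZ. For the microRNA hosts it was 338 to 353 in NOZ-R and 388 to 437 in NOZ. These gaps do not stand for a shift of every host. MIR100HG alone averaged 110 ± 6.71 CPM in NOZ-R and 177 ± 21.4 CPM in NOZ, a gap at least as large as that of the microRNA host sum. SNHG4 and SNHG14, given below, made up much of the gap of the snoRNA hosts. NEAT1 alone, a long RNA, made up 26.3% to 27.7% of the members' counts in NOZ-R and 22.4% to 24.3% in NOZ. In bulk RNA, fewer cells with a transcript and less of it per cell cannot be told apart.

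Of the 110 members, 85 had at least 1 count and 55 had enough counts to be tested: 24 snoRNA hosts, 29 microRNA hosts and both nuclear body RNAs. At an adjusted p under 0.05 (edgeR's quasi-likelihood test, Benjamini-Hochberg over 14386 genes), 12 of the 55 rose in NOZ-R, 20 fell and 23 did not pass. Over all tested genes 30.4% rose and 29.8% fell (60.2% in either direction), against 21.8% and 36.4% of the members (58.2% in either direction). The share of members called was therefore near the background. The median log2 fold change, NOZ-R over NOZ, was -0.11 for the members and -0.01 for all tested genes. CPM ranges of the lines did not overlap for 35 of the 55 members, and for 65.3% of all tested genes. The 1377 other long noncoding genes of GENCODE 29 that were tested gave 179 higher and 417 lower, with a median of -0.31. With library size as the only scaling, the members split into 8 higher and 23 lower, and the median of all genes moved by -0.13. The share of calls that were higher was then 37.8% over all genes, against 50.5% with TMM.

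Changes of at least 2-fold were few. They comprised 4 called members that were higher, MIR99AHG, MIR3142HG, MIR137HG and MIR210HG, and 7 that were lower, MIR1915HG, MIR4527HG, MIR222HG, MIR600HG, MALAT1, SNHG10 and DANCR. Among all tested genes 8.96% were called higher and at least 2-fold, and 7.57% lower. All 4 of the higher ones were microRNA hosts. A test against a 2-fold change called 3 members higher (MIR99AHG, MIR3142HG and MIR137HG) and 2 lower (MIR1915HG and MIR4527HG).

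**Figure D2:**
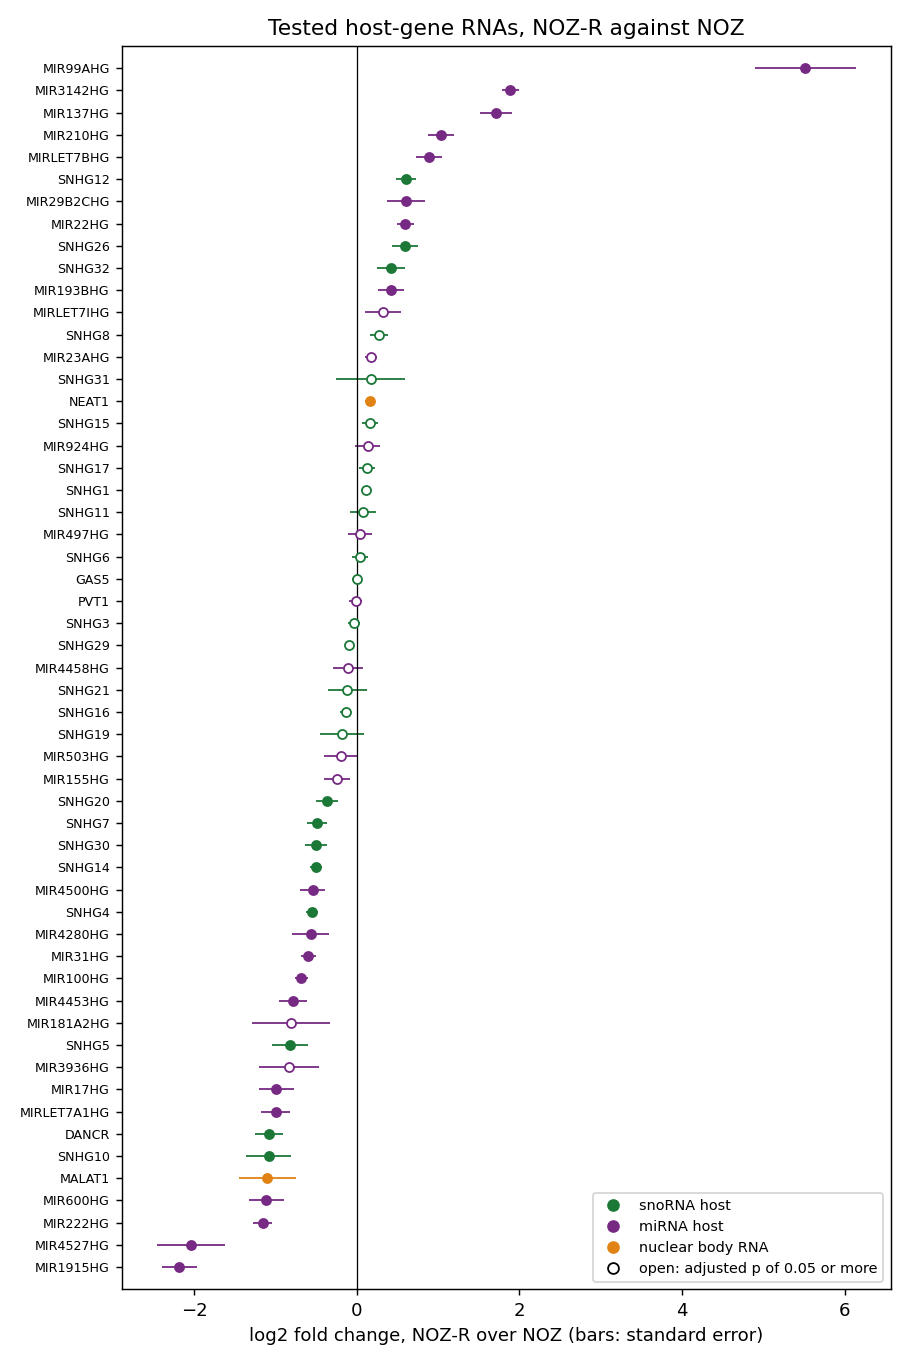
Log2 fold change, NOZ-R over NOZ, of the 55 tested host-gene RNAs (points, with standard errors as bars), coloured by class. Open points had an adjusted p of 0.05 or more. Most snoRNA hosts lie within 1 log2 unit of 0, and MIR99AHG lies far to the right at 5.52.

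Among the 24 tested snoRNA hosts, 3 rose, 8 fell and 13 did not pass, with a median log2 fold change of -0.07. The abundant ones differed little. GAS5 had 121 ± 2.87 CPM in NOZ-R and 121 ± 3.30 CPM in NOZ (SD, n = 3 each), with log2 fold change 0.00, SE 0.06, adjusted p = 0.974. SNHG1, a host of box C/D snoRNAs, had 84.7, 81.9 and 76.6 CPM in NOZ-R, against 80.5, 74.6 and 68.9 CPM in NOZ. Those ranges overlapped, with log2 fold change 0.12, SE 0.07, adjusted p = 0.172. SNHG29, SNHG16, SNHG3 and SNHG6 had log2 fold changes of -0.09, -0.14, -0.04 and 0.04 and did not pass. The other members without a call in this class were SNHG8, SNHG11, SNHG15, SNHG17, SNHG19, SNHG21 and SNHG31, between -0.18 and 0.28. Of the 7 tested members at 10 FPKM or more, 1 rose (NEAT1), 1 fell (SNHG4) and 5 did not pass. With the deposited FPKM, which holds no factor for composition, in place of TMM-scaled counts, GAS5 was called lower. Its log2 change was -0.12, with an adjusted p of 0.0443 (limma on log2(FPKM + 1)). The median of all tested genes moved by -0.07 in that fit. On log2(FPKM + 0.1) GAS5 was at -0.13, and the median moved by -0.12. In limma on log2(FPKM + 1) SNHG3 was also called lower (-0.15, adjusted p = 0.0493). So were SNHG29 and SNHG16, with log2 changes of -0.21 and -0.24 and adjusted p-values of 0.00704 and 0.00742. In edgeR both passed without NOZ replicate 2 (adjusted p = 0.0161 for SNHG29 and 0.0400 for SNHG16), and SNHG8 passed without NOZ-R replicate 3 (log2 fold change 0.37, adjusted p = 0.0178).

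SNHG12, which hosts snoRNAs on chromosome 1 (chr1:28578538-28582983, GRCh38), rose most in this class. It had 11.5, 10.2 and 9.72 CPM in NOZ-R, against 6.34, 6.98 and 7.45 CPM in NOZ. Every NOZ-R library lay above every NOZ library, with log2 fold change 0.61, SE 0.13, adjusted p = 0.000915. SNHG26 had 10.3, 8.61 and 11.5 CPM in NOZ-R, against 5.89, 5.98 and 8.53 CPM in NOZ. Its ranges came close without overlap, with log2 fold change 0.59, SE 0.16, adjusted p = 0.00650. It did not pass in limma on log2(FPKM + 1), at an adjusted p of 0.0631. SNHG32 had 4.56 ± 0.556 CPM in NOZ-R and 3.41 ± 0.362 CPM in NOZ and also passed, with log2 fold change 0.43, SE 0.17, adjusted p = 0.0466. Its call ended when any library other than NOZ-R replicate 3 was left out, with adjusted p-values of 0.0590 to 0.183.

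The snoRNA hosts that fell were SNHG10, DANCR, SNHG5, SNHG4, SNHG14, SNHG30, SNHG7 and SNHG20. DANCR, first described as a transcript that holds back differentiation of epidermal progenitors, lies at chr4:52712394-52720697. It had 3.98, 6.32 and 4.09 CPM in NOZ-R, against 11.6, 9.47 and 9.21 CPM in NOZ, with every NOZ-R library below every NOZ library. That was 2.11-fold lower in NOZ-R (log2 fold change -1.08, SE 0.18, adjusted p = 0.000137). SNHG10 had 3.04, 2.23 and 1.41 CPM in NOZ-R, against 6.54, 3.88 and 3.79 CPM in NOZ, with log2 fold change -1.08, SE 0.28, adjusted p = 0.00420. NOZ-R replicate 1 was the highest of its line and stayed below NOZ replicate 3. SNHG10 shares 20.1% of its 1945 annotated exonic bases with GLRX5 on the opposite strand, and reads there cannot be told apart without strand. The length behind the FPKM of SNHG10 was 5437 bases, and the shared part of that model was not tested.

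SNHG5, a host of box C/D snoRNAs, had 1.99, 2.97 and 2.88 CPM in NOZ-R, against 3.49, 5.65 and 4.67 CPM in NOZ. The lines did not overlap (log2 fold change -0.82, SE 0.23, adjusted p = 0.00645). SNHG4 had the highest FPKM of the members that fell, in both lines. It had 43.5, 43.5 and 39.6 CPM in NOZ-R, against 63.9, 61.2 and 60.3 CPM in NOZ. Its libraries were tightly grouped within each line (log2 fold change -0.55, SE 0.07, adjusted p = 1.29e-05). SNHG4 and MATR3 share a start and 14.01% of the exonic bases of SNHG4. The row of MATR3, a nuclear matrix protein, was lower as well (log2 fold change -0.91, adjusted p = 0.000202). It held only 4.11 ± 0.141 CPM in NOZ-R and 7.72 ± 1.23 CPM in NOZ, far below SNHG4. How reads were divided between these genes is not given in the sources used here, and how far the row stands for the MATR3 message was not tested. SNHG14, the long transcript of the Prader-Willi region that carries the SNORD115 and SNORD116 clusters and runs antisense to UBE3A, had 47.5 ± 3.02 CPM in NOZ-R and 67.2 ± 5.42 CPM in NOZ (log2 fold change -0.50, adjusted p = 8.6e-05). UBE3A did not pass, at -0.09. SNHG30 and SNHG7 fell by 0.50 and 0.49 on the log2 scale, and SNHG7 shares 25.2% of its exonic bases with DIPK1B on the opposite strand. SNHG20 (log2 fold change -0.37, adjusted p = 0.0300) lost its call without NOZ-R replicate 1 or 3 or NOZ replicate 1 or 3, at adjusted p-values of 0.0545 to 0.109.

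Many snoRNA hosts share with ribosomal protein genes a start known as 5′ TOP, a C followed by a run of pyrimidines at the first transcribed base, through which growth signalling sets translation of the message. A C within 10 bases of the annotated RefSeq start that opened a run of at least 5 C or T was found in 15 of 22 tested snoRNA hosts (68.2%) with a promoter sequence, in 12 of 26 microRNA hosts (46.2%), in 53 of 65 cytosolic ribosomal protein genes (81.5%) and in 33.3% of all 27305 promoters in the table. GAS5, SNHG1 and SNHG3 were among the hosts without such a run. The search depends on the annotated start, so a miss does not show that a host lacks a 5′ TOP start. The windows of 70 bases below, from RefSeq (GRCh38.p14), show 5 hosts with a C at the annotated start itself, with the run from that C onward in capitals. In all of them but SNHG4 a C or T also stands just before the capitals, so the run reaches upstream of the annotated start. They are shown because the start type is shared while the direction is not: SNHG12 and SNHG32 were higher in NOZ-R, SNHG4 and SNHG5 were lower, and SNHG19 did not pass (log2 fold change -0.18).
SNHG12, chr1:28581844-28581913, minus strand: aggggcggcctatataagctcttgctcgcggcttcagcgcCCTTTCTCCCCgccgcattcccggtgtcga
SNHG32, chr6:31834876-31834945, plus strand: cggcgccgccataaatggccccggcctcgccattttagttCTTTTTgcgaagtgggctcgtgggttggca
SNHG4, chr5:139274061-139274130, plus strand: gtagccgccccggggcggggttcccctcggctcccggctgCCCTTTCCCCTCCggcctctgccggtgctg
SNHG5, chr6:85678704-85678773, minus strand: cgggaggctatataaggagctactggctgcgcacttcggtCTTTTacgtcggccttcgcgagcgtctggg
SNHG19, chr16:2155329-2155398, minus strand: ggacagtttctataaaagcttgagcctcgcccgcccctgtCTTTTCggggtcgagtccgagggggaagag

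Coding genes known for the same start did not move in 1 direction either. Of 13 tested translation factors with a 5′ TOP start (14 listed), 4 rose, 3 fell and 6 did not pass, with a median log2 fold change of 0.07. EIF3F, a subunit of initiation factor eIF3, averaged 252 ± 18.0 CPM in NOZ-R and 173 ± 15.7 CPM in NOZ (log2 fold change 0.55, adjusted p = 2.15e-05). TPT1, the translationally controlled tumour protein, averaged 489 ± 24.5 CPM in NOZ-R and 609 ± 47.0 CPM in NOZ (log2 fold change -0.32, adjusted p = 0.000554). EEF1D rose by 0.45 and HNRNPA1 fell by 0.33 on the log2 scale.

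Of the 29 tested microRNA hosts, 8 rose, 11 fell and 10 did not pass, with a median log2 fold change of -0.20. MIR99AHG, the chromosome 21 host of miR-99a, let-7c and miR-125b, differed most. It had 31, 43 and 27 counts in NOZ-R, against 0, 2 and 0 counts in NOZ. Nearly all of its reads came from NOZ-R. From the summed counts the ratio of NOZ-R over NOZ was 54.3, with a 95% counting interval of 14.6 to 455. The fitted log2 fold change of 5.52 (SE 0.62, adjusted p = 4.18e-06) depends on the prior count, since NOZ was near 0. In limma on log2(FPKM + 1), where a transcript this rare per length barely moves, it did not pass (adjusted p = 0.234).

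MIR3142HG, the chromosome 5 host of miR-146a (chr5:160468251-160487426), was the most abundant member that rose beyond 2-fold. MiR-146a is induced by NF-kappaB and acts back on TRAF6 and IRAK1 in inflammatory signalling. The host had 30.2, 26.9 and 27.4 CPM in NOZ-R, against 7.39, 6.87 and 8.67 CPM in NOZ. The lowest NOZ-R library lay at more than 3 times the highest NOZ library, and the host was 3.71-fold higher overall (log2 fold change 1.89, SE 0.11, adjusted p = 5.08e-09). MIR137HG, host of the neuronal microRNA miR-137, had 6.85, 5.45 and 8.25 CPM in NOZ-R, against 2.20, 1.99 and 2.03 CPM in NOZ. It was 3.28-fold higher, without overlap (log2 fold change 1.71, SE 0.19, adjusted p = 4.21e-06). It shares 6.89% of its exonic bases with DPYD, the enzyme that degrades pyrimidines, which rose by a log2 fold change of 0.49 (adjusted p = 3.46e-05).

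MIR210HG, host of the hypoxia-induced miR-210, had 7.63, 7.12 and 6.03 CPM in NOZ-R, against 3.49, 2.99 and 3.66 CPM in NOZ. The lines did not overlap and NOZ-R was 2.06-fold higher (log2 fold change 1.04, SE 0.16, adjusted p = 7.63e-05). MIRLET7BHG, host of let-7a-3 and let-7b, had 8.07, 8.42 and 6.57 CPM in NOZ-R, against 4.04, 3.77 and 4.74 CPM in NOZ, again without overlap (log2 fold change 0.89, SE 0.16, adjusted p = 0.000246). MIR22HG had 21.3, 21.6 and 20.4 CPM in NOZ-R, against 14.6, 12.2 and 15.0 CPM in NOZ. This well expressed host of miR-22 was 1.51-fold higher (log2 fold change 0.60, SE 0.10, adjusted p = 0.000160). MIR29B2CHG, host of miR-29b-2 and miR-29c, averaged 2.58 ± 0.327 CPM in NOZ-R and 1.70 ± 0.278 CPM in NOZ (log2 fold change 0.61, SE 0.23, adjusted p = 0.0359), and MIR193BHG averaged 7.07 ± 0.804 CPM in NOZ-R and 5.26 ± 0.916 CPM in NOZ (log2 fold change 0.42, SE 0.16, adjusted p = 0.0354). Both calls ended without NOZ-R replicate 1 or 2 or NOZ replicate 2 or 3, with adjusted p-values of 0.0502 to 0.133 for MIR29B2CHG and of 0.0666 to 0.138 for MIR193BHG, and both ended with library size as the only scaling.

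**Figure D3:**
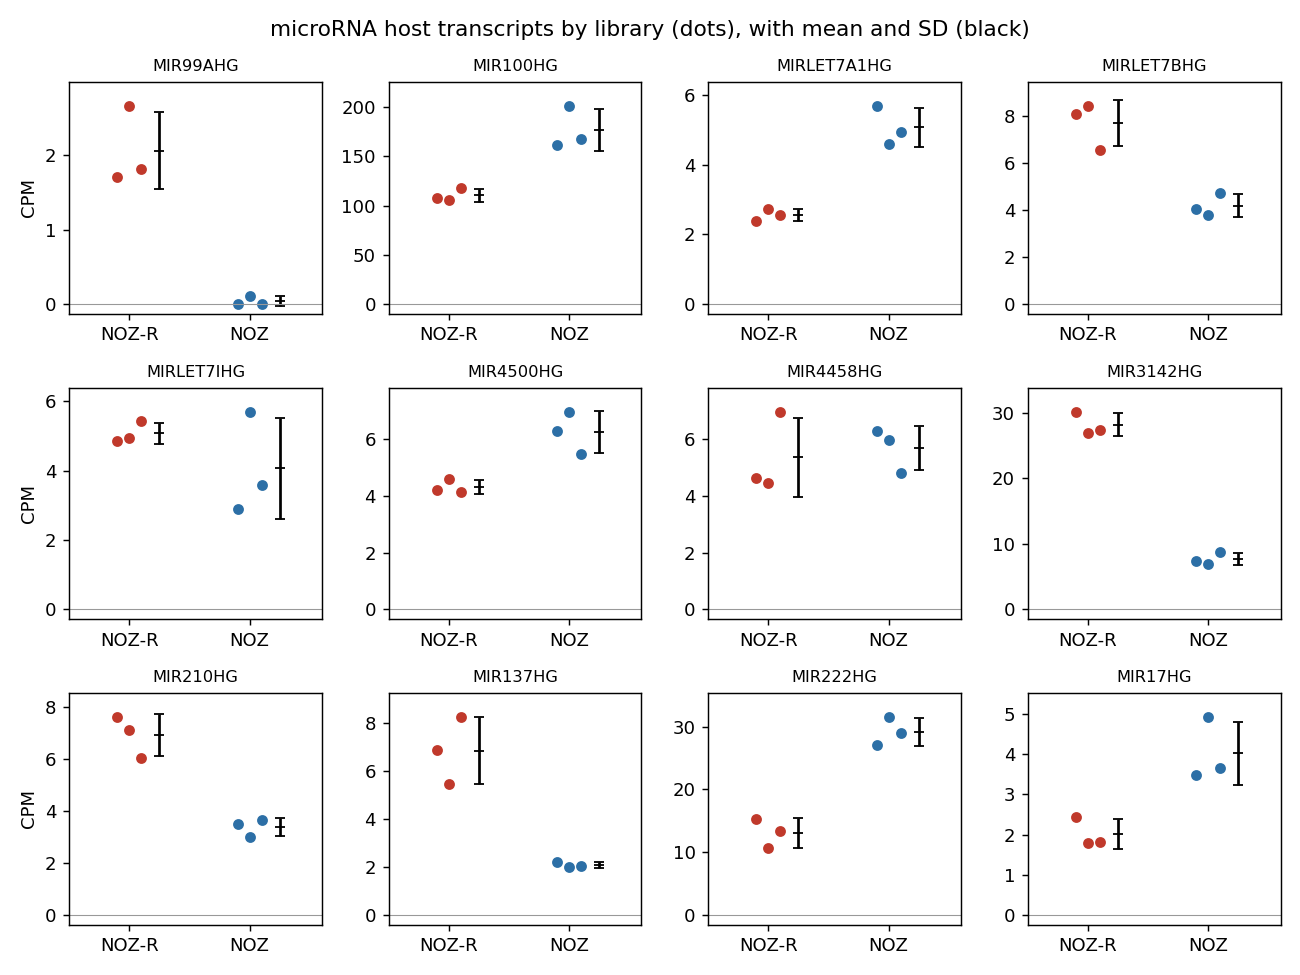
CPM by library (dots) of 12 microRNA host transcripts, NOZ-R left and NOZ right in each panel, with mean and SD in black and each axis drawn from 0. The upper panels hold hosts that carry the let-7 seed: MIR99AHG and MIRLET7BHG lie higher in NOZ-R, MIR100HG, MIRLET7A1HG and MIR4500HG lie lower, and MIRLET7IHG and MIR4458HG overlap.

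Of the microRNA hosts that fell, MIR100HG had the highest FPKM in both lines. This chromosome 11 host of miR-100, let-7a-2 and miR-125b-1 had 107, 106 and 118 CPM in NOZ-R, against 162, 201 and 168 CPM in NOZ. No NOZ-R library reached the lowest NOZ library (log2 fold change -0.68, SE 0.08, adjusted p = 7.62e-06). MIR222HG, the X-linked host of miR-221 and miR-222, which repress the cell cycle inhibitor CDKN1B, had 15.3, 10.6 and 13.3 CPM in NOZ-R, against 27.1, 31.5 and 29.1 CPM in NOZ. It was 2.23-fold lower in NOZ-R (log2 fold change -1.16, SE 0.12, adjusted p = 1.94e-06). MIR17HG, host of the miR-17-92 cluster and a direct target of MYC, had 2.43, 1.80 and 1.81 CPM in NOZ-R, against 3.49, 4.93 and 3.66 CPM in NOZ. It was 1.98-fold lower, without overlap (log2 fold change -0.99, SE 0.22, adjusted p = 0.00147).

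MIR31HG, host of miR-31 near the CDKN2A locus, averaged 16.1 ± 0.636 CPM in NOZ-R and 24.4 ± 1.92 CPM in NOZ (log2 fold change -0.60, SE 0.09, adjusted p = 7.5e-05). It shares 303 of its 745 annotated exonic bases (40.7%) with the pseudogene IFNWP19 on the opposite strand. The length behind the FPKM of MIR31HG was far longer, at 16590 bases, and the shared part of that model was not tested. MIRLET7A1HG, host of let-7a-1, let-7f-1 and let-7d, averaged 2.55 ± 0.174 CPM in NOZ-R and 5.08 ± 0.559 CPM in NOZ (log2 fold change -0.998, SE 0.17, adjusted p = 0.000229). LINC02603 on the opposite strand shares 1130 of the 1435 annotated exonic bases of MIRLET7A1HG (78.7%), and reads there cannot be told apart without strand. The length behind the FPKM of MIRLET7A1HG was 4656 bases. How much of that longer model is shared was not tested. MIR1915HG had 21, 26 and 14 counts in NOZ-R, against 102, 108 and 88 counts in NOZ. This was the largest called decrease among the members, 4.54-fold (log2 fold change -2.18, SE 0.21, adjusted p = 1.18e-06). MIR4527HG had 6, 8 and 3 counts in NOZ-R, against 37, 26 and 14 counts in NOZ. Its few counts did not overlap between the lines (log2 fold change -2.03, SE 0.42, adjusted p = 0.000867).

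The remaining hosts that fell were MIR600HG, MIR4453HG, MIR4280HG and MIR4500HG, at log2 fold changes of -1.11, -0.79, -0.57 and -0.54. MIR4280HG (adjusted p = 0.0483) lost its call without NOZ-R replicate 2 or 3 or NOZ replicate 2 or 3, at adjusted p-values of 0.0905 to 0.160. Hosts that did not pass included MIR155HG, host of the lymphoid and inflammatory miR-155 (-0.24), MIR23AHG, host of the miR-23a cluster (0.17), MIR497HG (0.04), MIR503HG (-0.20), MIR924HG (0.13), MIR181A2HG (-0.81), MIRLET7IHG (0.32), MIR4458HG (-0.11) and MIR3936HG (-0.83). The last of these values rests on 8 to 24 counts per library, and that of MIR181A2HG on 3 to 18. On the FPKM scale MIR155HG (-0.26, adjusted p = 0.0268) and MIR3936HG (-0.17, adjusted p = 0.0407) were called lower in limma on log2(FPKM + 1). The median of all tested genes moved by -0.07 in that fit. Leaving out 1 library brought some of these hosts past the threshold in edgeR. Without NOZ replicate 2, MIRLET7IHG (log2 fold change 0.66, adjusted p = 0.00646) and MIR23AHG (0.19, adjusted p = 0.0228) rose. MIR181A2HG fell without NOZ-R replicate 2 (-1.51, adjusted p = 0.0342), and MIR3936HG fell without NOZ-R replicate 3 (-1.11, adjusted p = 0.0435) or NOZ replicate 1 (-1.02, adjusted p = 0.0457).

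Mature sequences were found for 30 tested hosts, which carry 93 named mature microRNAs with 76 seeds. Only 4 seeds occurred in more than 1 tested host, and each of the 4 had at least 1 host that rose and 1 that fell. The 4 are not separate observations, since the same hosts recur among them. The seed UAUACAA, of let-7a-3p and let-7b-3p among others, was carried by MIRLET7BHG, which rose, and MIRLET7A1HG, which fell. The let-7 seed GAGGUAG was carried by 7 tested hosts: MIR99AHG and MIRLET7BHG rose, MIR100HG, MIRLET7A1HG and MIR4500HG fell, and MIRLET7IHG and MIR4458HG did not pass. The seed ACCCGUA of miR-99a-5p and miR-100-5p and the seed CCCUGAG of miR-125b-5p were each carried by MIR99AHG, which rose, and MIR100HG, which fell. As level per length, MIR100HG averaged 3.49 ± 0.207 FPKM in NOZ-R and 6.12 ± 0.754 FPKM in NOZ, while MIR99AHG averaged 0.0334 ± 0.00838 FPKM in NOZ-R and 0.000656 ± 0.00114 FPKM in NOZ (SD, n = 3 each). The level per length of MIR99AHG in NOZ-R lay far below that of MIR100HG in either line.

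The nuclear body RNAs went in opposite directions, both near the threshold. NEAT1 (chr11:65422798-65445540) had 431, 419 and 381 CPM in NOZ-R, against 360.5, 396 and 343 CPM in NOZ. The ranges overlapped, since NOZ-R replicate 3 lay below NOZ replicate 2, and the difference was small (log2 fold change 0.16, SE 0.06, adjusted p = 0.0413). The call ended without NOZ-R replicate 1 or 2 or NOZ replicate 1 or 3, with adjusted p-values of 0.0892 to 0.161, and with library size as the only scaling (log2 fold change 0.03). MALAT1 had 15, 15 and 19 counts in NOZ-R, against 43, 54 and 18 counts in NOZ. NOZ replicate 3 lay among the NOZ-R libraries, and NOZ replicate 2 was the highest (log2 fold change -1.10, SE 0.35, adjusted p = 0.0140). Without NOZ replicate 2 the log2 fold change of MALAT1 was -0.78 with an adjusted p of 0.0763, and without NOZ-R replicate 1 it was -0.96 with an adjusted p of 0.0572. The counts of MALAT1 were few for a transcript known for its abundance. The antisense gene TALAM1 overlaps 82.1% of its span, the row of TALAM1 was 0 in all libraries, and the strand setting of the counting is not given in the sources used here. How far the value of MALAT1 stands for its RNA was not tested.

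PVT1, the host gene next to MYC, had 29.6, 27.2 and 27.6 CPM in NOZ-R, against 29.5, 29.03 and 26.7 CPM in NOZ. The ranges overlapped (log2 fold change -0.01, SE 0.08, adjusted p = 0.889). MYC itself rose, with 207 ± 0.694 CPM in NOZ-R and 147 ± 11.5 CPM in NOZ (log2 fold change 0.49, adjusted p = 1.44e-05). H19, the imprinted host of miR-675, was too rare to be tested. It had 11, 15 and 9 counts in NOZ-R, against 11, 9 and 4 counts in NOZ. From the summed counts its ratio was 1.57, with a 95% counting interval of 0.907 to 2.76, so a difference was not detectable at this depth from the sums. Its CPM ranges did not overlap, at 0.603 to 0.929 CPM in NOZ-R and 0.271 to 0.549 CPM in NOZ. IGF2, the imprinted partner of H19, was also too rare to test and had 6, 5 and 6 counts in NOZ-R, against 3, 3 and 2 counts in NOZ. CDKN1C, a cell cycle inhibitor of the same imprinted region, had 8, 11 and 8 counts in NOZ-R, against 88, 53 and 57 counts in NOZ (log2 fold change -2.75, adjusted p = 2.08e-06). NR3C1, the glucocorticoid receptor that GAS5 can bind, rose (log2 fold change 0.62), and the RNA-binding protein IGF2BP2 fell (-0.51). Of the 8 tested genes paired with H19, PVT1 or GAS5 in the literature (9 listed), 4 rose, 3 fell and 1 did not pass, with a median of 0.19.

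Of the members that were not tested, 25 had no count in any library and 30 had few. A count of 0 in a library allows up to 0.156 to 0.212 CPM, taking 3 counts as the floor. This limit covers counting error only, and a 0 can also come from how reads were assigned to genes: EEF1G, an elongation factor subunit that every cell uses, was at 0 in all 6 libraries. The 25 comprised SNHG18, SNHG25, SNHG28, SNHG33 and 21 microRNA hosts, among them MIR200CHG, host of the epithelial miR-200c, MIR122HG, host of the liver microRNA miR-122, and the blood cell hosts MIR142HG and MIR223HG. MIR3681HG had 11, 8 and 6 counts in NOZ-R, against 2, 2 and 3 counts in NOZ, and its ranges did not overlap. SNHG22 had 0, 1 and 1 counts in NOZ-R, against 3, 4 and 4 counts in NOZ, and the lines likewise did not overlap. MIR34AHG, host of the p53-induced miR-34a, had 11, 3 and 3 counts in NOZ-R, against 3, 2 and 1 counts in NOZ. MIR205HG had 7, 1 and 1 counts in NOZ-R, against 0, 1 and 0 counts in NOZ, with most of them in 1 NOZ-R library. MIR181A1HG had 9, 9 and 9 counts in NOZ-R, against 5, 5 and 10 counts in NOZ. MIR762HG and MIR4733HG had 4 to 18 and 1 to 10 counts per library, and each of the other 22 had 9 counts or fewer per line.

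Rows of the table that name the hosted small RNAs held next to nothing. Of 36 snoRNA rows and 38 microRNA rows that lie inside annotated exons of a member, 0 had a count. Of 88 snoRNA rows in introns 6 had counts, 178 in all, and of 69 microRNA rows in introns 15 had counts, 68 in all. The fullest was SNORA73B in an intron of SNHG3, singled out after its values were seen. It had 24, 18 and 16 counts in NOZ-R, against 10, 8 and 6 counts in NOZ (log2 fold change 1.36, adjusted p = 0.00402). Its host SNHG3 did not pass, at -0.04. RCC1, whose start lies 100 bases from that of SNHG3 on the same strand, rose (log2 fold change 0.40). From which of these transcripts the reads of SNORA73B came was not tested. These rows do not measure mature small RNAs, since the libraries were selected for poly-A tails and fragment length.

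Genes that act on host transcripts were counted by role, from lists chosen with earlier results of these data known. Of the 8 core proteins of box C/D and H/ACA snoRNPs, 4 rose, 1 fell and 3 did not pass (median log2 fold change 0.34). NOP56, a C/D core protein, averaged 273 ± 7.18 CPM in NOZ-R and 183 ± 7.57 CPM in NOZ (log2 fold change 0.58, adjusted p = 8.23e-07). GAR1, an H/ACA core protein, rose by 0.57 and the methyltransferase FBL fell by 0.40 on the log2 scale. Of 11 snoRNP assembly factors 1 rose, 4 fell and 6 did not pass (median 0.01). NAF1 was at 0.40, RPAP3 at -0.44 and NUFIP1 at -0.32.

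Of 21 nonsense-mediated decay and exon junction factors, 12 rose, 2 fell and 7 did not pass, with a median of 0.20. PNRC2, an adaptor that links UPF1 to decapping, averaged 126 ± 6.38 CPM in NOZ-R and 72.0 ± 7.17 CPM in NOZ (log2 fold change 0.81, adjusted p = 7.34e-07). SMG5, which takes part in turning off phosphorylated UPF1 and in decay, averaged 147 ± 5.07 CPM in NOZ-R and 84.8 ± 5.81 CPM in NOZ (log2 fold change 0.80, adjusted p = 1.9e-07). UPF3A (-0.45) and UPF2 (-0.38) fell. Of 16 tested microRNA processing and effector genes (18 listed), 6 rose, 4 fell and 6 did not pass, with a median of -0.05. DICER1, which cuts microRNA precursors, averaged 54.5 ± 1.61 CPM in NOZ-R and 129.5 ± 14.6 CPM in NOZ (log2 fold change -1.25, adjusted p = 1.55e-08), a clear gap between the lines. TNRC6C, a silencing effector that binds Argonaute proteins, averaged 2.21 ± 0.248 CPM in NOZ-R and 6.03 ± 0.159 CPM in NOZ (log2 fold change -1.45, adjusted p = 5.43e-06). DGCR8, the RNA-binding partner of DROSHA, rose (0.65), as did AGO4 (0.48).

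Of 15 paraspeckle proteins 4 rose, 5 fell and 6 did not pass (median 0.02). SFPQ, an essential paraspeckle protein, averaged 526 ± 8.84 CPM in NOZ-R and 361 ± 9.10 CPM in NOZ (log2 fold change 0.54, adjusted p = 4.5e-07), and its partner NONO averaged 983 ± 24.6 CPM in NOZ-R and 1264 ± 32.4 CPM in NOZ (log2 fold change -0.36, adjusted p = 1.11e-05). NUDT21, a 3′ end processing factor, fell by 0.41 on the log2 scale. Of 13 nuclear speckle and SR proteins 7 rose, 3 fell and 3 did not pass (median 0.30), among them the splicing factors SRSF7 (0.61) and SRSF2 (0.60), the kinase SRPK1 (-0.49) and SRRM1 (-0.31). Of 7 known targets of the miR-17-92 microRNAs 3 rose, 2 fell and 2 did not pass (median -0.04). The secreted protein THBS1 averaged 508 ± 19.2 CPM in NOZ-R and 10.6 ± 0.451 CPM in NOZ (log2 fold change 5.59, adjusted p = 1.7e-15), CCN2 was at 2.04 and the cell cycle inhibitor CDKN1A at 1.59, while the receptor TGFBR2 (-0.23) fell. Over all tested genes the shares were 30.4% higher and 29.8% lower, as given above.

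Each tested member was set beside the tested coding gene with the nearest start on its chromosome. Of 49 such pairs, both genes were called in 24. In 6 of these both rose and in 12 both fell. In 2 the member rose and the neighbour fell, and in 4 the member fell and the neighbour rose. Of all tested genes 60.2% were called, and no such count was made for neighbouring pairs over all genes. Several pairs that fell lie on chromosomes with a low median, given below. The split therefore describes these pairs and is no trait of host genes. Starts lay within 1000 bases of each other in 10 pairs, of which 4 had both genes called, each in the same direction. They were SNHG4 with MATR3, SNHG20 with SEC14L1 (log2 fold changes -0.37 and -0.23) and SNHG10 with GLRX5 (-1.08 and -0.67), which fell, and MIR22HG with WDR81 (0.60 and 0.60), which rose. SNHG4, SNHG20 and SNHG10 share 626, 460 and 391 annotated exonic bases with these neighbours. How reads there were divided is not given, so the rows of such a pair may not be separate. MIR4453HG fell while FBXW7, whose start lies 172 bases away, did not pass (0.18). Of GAS5 and ZBTB37, neither passed. In the other close pairs only the neighbour was called. RCC1 (0.40) rose beside SNHG3 (-0.04), TRAF7 (0.38) beside SNHG19 (-0.18) and BARD1 (0.28) beside SNHG31 (0.17). SLC22A5 (-0.39) fell beside MIR3936HG (-0.83).

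Pairs farther apart included opposite moves. USP46, the neighbour of DANCR, averaged 12.6 ± 1.05 CPM in NOZ-R and 5.16 ± 0.494 CPM in NOZ (log2 fold change 1.28, adjusted p = 1.49e-06). SYNCRIP, the nearest to SNHG5, rose by 0.49, and LTBP3, the nearest to MALAT1, by 0.42 on the log2 scale. UBASH3B, 554876 bases from the start used for MIR100HG, rose by 0.23. That start lies inside the RefSeq span of MIR100HG, so the distance depends on the transcript taken. PTTG1, the nearest to MIR3142HG, was at -0.37 and USP25, 340506 bases from MIR99AHG, at -0.77, both lower while the host rose. Higher together with their hosts were PHRF1 with MIR210HG (0.42), TRNAU1AP with SNHG12 (1.30), TOMM7 with SNHG26 (0.34) and HSPA1B with SNHG32 (0.51). Lower together with their hosts were STRBP with MIR600HG (-1.20), ZNF169 with MIRLET7A1HG (-0.99) and SKIDA1 with MIR1915HG (-1.24). ZNF674, 775154 bases from MIR222HG, was lower as well (-1.13). STRBP and MIR600HG, on the same strand, share 254 exonic bases. PPARA next to MIRLET7BHG (-0.15), CD46 next to MIR29B2CHG (-0.12) and TGDS, 3248465 bases from MIR17HG (0.07), did not pass.

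**Figure D4:**
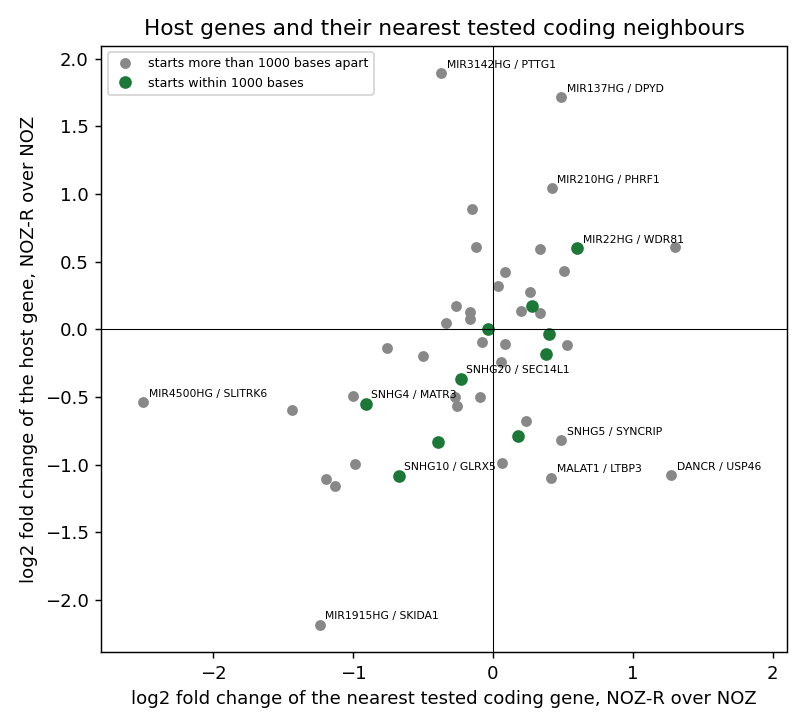
Log2 fold change of each tested host gene (vertical) against that of the tested coding gene with the nearest start (horizontal), NOZ-R over NOZ, with pairs within 1000 bases in green. MIR99AHG, at 5.52, is off the scale and left out. The labelled green pairs, in which both genes were called, lie at the lower left and upper right, and DANCR with USP46 lies at the lower right.

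Whole chromosomes differed in their median log2 fold change, from -0.64 on chromosome 9 and -0.60 on chromosome 10 to 0.33 on chromosome 6. The X chromosome was at -0.44 and chromosome 13 at -0.38. Members on low chromosomes include MIR31HG, SNHG7, MIR600HG and MIRLET7A1HG on chromosome 9, MIR1915HG on chromosome 10, MIR17HG and MIR4500HG on chromosome 13 and MIR222HG on the X chromosome. After subtraction of the chromosome median, 30 of the 32 called members kept their sign. MIR31HG came to 0.04 and SNHG7 to 0.14, MIR4500HG stayed at -0.16, and MIR1915HG, MIR222HG and MIR17HG stayed at -1.58, -0.71 and -0.61.

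Promoter sequences, 250 bases before to 50 bases after the RefSeq start, were found for 49 tested members and searched on both strands. The E-box CACGTG occurred in SNHG7 and SNHG30 (4.08% of the members) and in 7.43% of all 27305 promoters. The shorter ACGTG, the core of hypoxia response elements, which lies within that E-box, occurred in 13 members (26.5%) and in 21.6% of all. Of the 13, MIR210HG, MIR22HG, MIR137HG and MIRLET7BHG rose, MIR4280HG, MIR600HG, SNHG7 and SNHG30 fell, and 5 did not pass. The NF-kappaB-like GGGNNTTCC occurred in 7 members (14.3%) and in 6.60% of all, and its longer form with 1 more N in 9 members (18.4%) and in 6.47% of all. Of the 9, MIR3142HG and SNHG26 rose, MIR100HG, MIR222HG and SNHG20 fell, and MIR3936HG, SNHG19, SNHG21 and SNHG29 did not pass. The CRE TGACGTCA occurred in 0 members and in 1.98% of all. A match describes letters in the window and says nothing of binding.

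Of the epithelial markers the keratins were high in both lines, while CDH1 and MUC1 were low. Summed CPM of 8 epithelial markers was 3305 to 3399.9 in NOZ-R and 2432 to 2926 in NOZ, led by KRT8, KRT19 and KRT7, whereas CDH1, which defines epithelial junctions, was at 0.290 ± 0.173 CPM in NOZ-R and 1.03 ± 0.262 CPM in NOZ, and MUC1, a surface mucin, was at 3.59 ± 0.530 CPM in NOZ-R and 1.43 ± 0.130 CPM in NOZ. Of these 8, 4 rose and 3 fell. Fibroblast markers summed to 7.91 to 8.11 CPM in NOZ-R and 3.10 to 3.59 CPM in NOZ. Of the 8, 2 rose (COL3A1 and FAP) among 4 tested, and COL1A2, DCN, LUM, THY1 and FAP had no count in NOZ. Leukocyte and endothelial markers summed to 13.7 to 15.7 CPM in NOZ-R and 5.59 to 8.44 CPM in NOZ, with 2 of 3 tested higher of 10 listed. PECAM1, an adhesion molecule of endothelium, made up most of that sum in NOZ-R, at 9.21 ± 0.571 CPM in NOZ-R and 1.87 ± 0.0686 CPM in NOZ. PTPRC, which defines leukocytes, had 4, 2 and 5 counts in NOZ-R, against 28, 14 and 7 counts in NOZ, and CDH5, which defines endothelium, had 7, 11 and 2 counts in NOZ-R, against 13, 8 and 8 counts in NOZ. Their part in the differences of the host-gene RNAs was not tested.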

How the data were processed

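Poly-A RNA of 3 NOZ-R and 3 NOZ libraries was sequenced. The authors deposited whole-number counts per gene, not normalized, and FPKM values made from the same counts with each library's total and 1 length per gene (checked on the tables). Per the submitters' processing notes, fastp 0.22.0 was used on the reads and GRCh38 was the genome. The sources used here name no aligner, counter, strand setting or annotation release. No strand-marking step or molecular identifier is described in the labels' protocols, so intervals and floors cover counting error only. Total counts were 18855409, 16954519 and 15661532 in NOZ-R replicates 1 to 3, and 19244923, 17253439 and 14136037 in NOZ replicates 1 to 3.

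Counts of the whole table were tested with edgeR 4.0.16 in R 4.3.3 (filterByExpr, TMM, quasi-likelihood test, Benjamini-Hochberg at 0.05 over 14386 genes). The SE is the size of the log2 fold change divided by the square root of F. The test was checked on simulated counts. Members and lists were chosen with earlier results of these data known. Named were GAS5, H19, NEAT1, MALAT1, PVT1, DANCR, SNHG1, MIR17HG, MYC and IGF2, the 10 largest increases and decreases among called members, up to 2 of each direction per list, and the neighbours of those members; other members are given by name, count or range. Some list genes that this rule names are not reported here. SNORA73B, TALAM1, EEF1G, genes of the marker lists and the neighbours SEC14L1, FBXW7, UBE3A, RCC1, TRAF7, BARD1 and SLC22A5 were named after their values were seen. Positions and sequences come from RefSeq (GRCh38.p14; 107 of 110 members matched) and exons from GENCODE 29, and the authors' annotation may differ. Other settings were tried 1 at a time. For scaling these were upper-quartile factors, DESeq2 size factors and library size only. For filtering they were 1 CPM in 3 libraries and no filter at all. For the test they were limma 3.58.1 on log2(FPKM + 0.1) and on log2(FPKM + 1), DESeq2 1.42.0 (Wald), a 2-fold threshold on the change and an adjusted p of 0.01. The rest were a block for the replicate number, a GC correction (loess, span 0.3), with and without that block, subtraction of chromosome medians, and each library left out in turn. Replicate pairs differed beyond sampling noise (mean chi-square per gene 2.19 to 11.5), and all libraries were kept. Python 3.11.15 with pandas 2.3.3, scipy 1.17.1 and matplotlib 3.10.9 was used for tables and plots.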

Additional observations from a re-analysis of the deposited data

How the results depend on the processing

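Across the alternatives the members' count varied between 6 and 14 higher and between 17 and 26 lower, apart from the test against a 2-fold change, which gave 3 and 2. That test gave 847 higher and 442 lower over all genes, against 4379 and 4284. Limma gave 6 higher on log2(FPKM + 1) and 7 higher on log2(FPKM + 0.1), with 25 and 26 lower. As a share of the called members, 37.5% were higher, against 25.8% with library size only, 19.4% and 21.2% in limma and 28.1% after GC correction. Over all genes that share was 50.5%, against 37.8% with library size only and in both limma fits and 43.5% after GC correction, so the whole table shifted with these settings. Leaving out single libraries gave 8 to 13 higher and 18 to 20 lower members, and 4018 to 4634 higher and 3833 to 4328 lower over all genes. Of the 32 calls, those of MIR137HG, MIR1915HG, MIR3142HG and MIR4527HG passed under every alternative that gave them a p, and 19 others were lost only in the test against 2-fold, where MIR99AHG held. The sign of GAS5 changed with library size only (-0.127), upper-quartile factors (-0.0116), 1 CPM in 3 libraries (-0.00320), no filter (-0.00332), both limma fits (-0.121 and -0.126), GC correction (-0.0636) and GC correction with the block (-0.0638), and with the chromosome median subtracted it was -0.165. Without single libraries the log2 fold change of GAS5 ranged from -0.00465 to 0.0263 and that of PVT1 from -0.0506 to 0.0187. SNHG1 came to -0.0106 with library size only and to -0.00767 and -0.00797 in limma. Replicate numbers did not pair the libraries: deviations of same-numbered libraries correlated at 0.07, -0.02 and -0.04. With the replicate block 11 members rose and 19 fell, and SNHG32 and MIR4280HG lost their calls. Depth limits members with few counts in both lines, which the filter left out. Members with few counts in 1 line could still be tested, such as MIR4527HG with 6, 8 and 3 counts in NOZ-R.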
